A study of Homo sapiens with 6 samples.

Results

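SWI/SNF complexes are ATP-driven machines that slide and eject nucleosomes. They come in 3 forms, BAF, PBAF and the non-canonical GBAF, built around 1 of the paralogous motor subunits SMARCA4 (BRG1) and SMARCA2 (BRM). ARID1A and ARID1B are alternative subunits that define BAF, whereas ARID2 marks PBAF. SMARCC1, SMARCC2, SMARCB1, SMARCD1 and SMARCE1 build the core and base of BAF on which the motor sits. ARID1A is among the chromatin regulators most often inactivated in human tumours, colorectal cancers included.

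The 10 genes described here, ARID1A, ARID1B, ARID2, SMARCA2, SMARCA4, SMARCB1, SMARCC1, SMARCC2, SMARCD1 and SMARCE1, were chosen by their symbols out of the 40173 genes of the table. They hold 250 of its 151453 transcripts with a gene, 16 of them from ARID1A. The choice was made with the CYGB against MOCK values of these genes known, so those values are given as a description. Where a fit over all genes or transcripts called a member, the call is stated beside the share called in the whole table, and no p-value is given for it. The libraries came from HCT116 cells, a human colorectal cancer line of wild type genotype per the labels, kept at passages 15 to 20. The cells were transduced with a control lentivirus (MOCK) or with a lentivirus that constitutively expresses the CYGB coding region fused to a FLAG tag, and stable lines of both were selected with puromycin. CYGB encodes cytoglobin, a haem protein that binds oxygen. Total RNA was sequenced from 3 replicates per group, which the submitters call biological, and the authors deposited raw counts per transcript.

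Each library held 47193496 to 53531777 counts on transcripts with a gene. The label check on the CYGB gene itself held, at 10, 28 and 34 counts in the respective MOCK replicates against 34935, 27681 and 32333 with the CYGB virus. Markers of colon epithelium (EPCAM, CDH1, KRT8, KRT18, KRT19, VIL1 and CDX2) summed to 4102 to 4587 counts scaled to an equal library total (CPM) in MOCK and 4121 to 4526 CPM in CYGB, although VIL1 stayed below 1 CPM in every library. Fibroblast markers summed to 45.4 to 54.1 CPM over the 6 libraries, nearly all of it COL1A1. Blood markers reached 10.3 to 25.4 CPM, nearly all of it CD68, and endothelial markers 0.556 to 1.92 CPM.

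ARID1A (ENSG00000117713) lies on chromosome 1 of GRCh38 from 26693236 to 26782110, plus strand. GENCODE 29 gives 20 exons to its transcript ENST00000324856 and 19 to each of ENST00000374152 and ENST00000636219. The annotation tags ENST00000636219 as incomplete at its 5′ end and as lacking support from human transcripts. Of the 6909 windows of 150 bases (the length of a read) along ENST00000636219, 147 occur in no other ARID1A transcript of the table. Its length is 7058 bases. ENST00000374152 had 468 of 6311 such windows and ENST00000324856 had 379 of 8434. How the reads of shared exons were divided among transcripts is not given in the sources used here, so a count of 1 transcript is an assignment and not a direct measurement of that transcript.

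**Figure D1:**
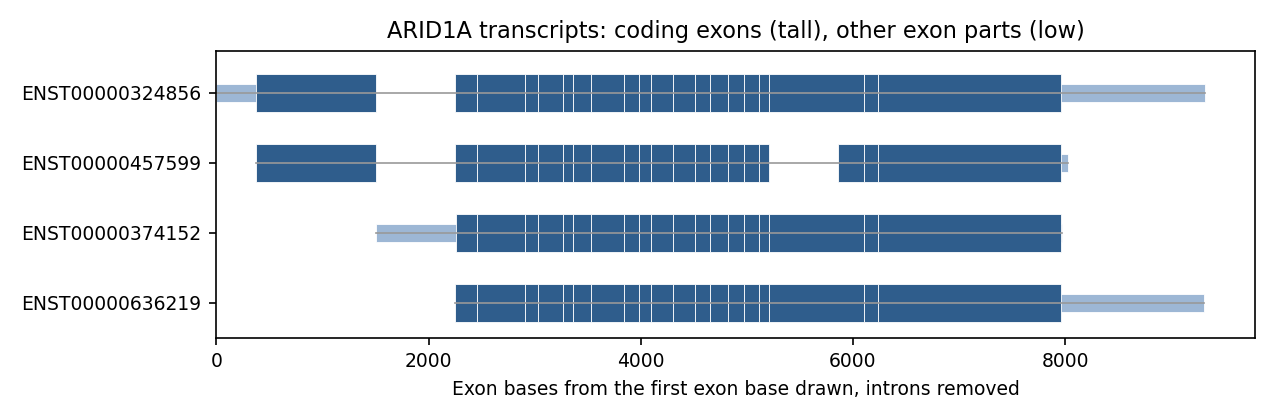
Exons of 4 ARID1A transcripts, drawn in exon bases with introns removed; tall boxes are coding, low boxes are other exon parts, and thin lines are exon bases a transcript lacks. ENST00000636219 covers almost the same coding exons as ENST00000374152, and extends past the coding part at its 3′ end.

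The question of the design was whether forced CYGB expression altered gene expression, here read for the SWI/SNF subunits. Summed over its transcripts, ARID1A was measured at 137, 146 and 165 CPM in the MOCK replicates and at 163, 165 and 170 CPM in the CYGB replicates. The highest MOCK library lay between the lowest and the middle CYGB library, so the groups overlapped. The means were 149 ± 14.1 CPM and 166 ± 3.61 CPM (SD, n = 3 each), which differed by 0.16 on the log2 scale with a standard error of 0.09. In bulk RNA, fewer cells that express a gene and less RNA per cell cannot be told apart.

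The assignment of ARID1A counts to transcripts differed far more than the gene total. ENST00000636219, which has a coding length of 5709 bases, was at 0 in each of the MOCK replicates, whereas CYGB replicates 1 to 3 had 4151, 6172 and 4465 counts. It held 50.3%, 73.5% and 49.9% of the ARID1A counts of those libraries. With 0 taken as up to 3 counts per library, a limit that covers counting error only, its mean of 97.9 ± 23.0 CPM (SD, n = 3) in CYGB was at least 1638-fold higher than in MOCK. The fitted log2 fold change of 15.27 (standard error 0.49) depends on the prior count of the fit and is no bound.

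ENST00000374152, with a coding length of 5706 bases, was the most abundant ARID1A transcript in MOCK, with 5175, 5296 and 4640 counts. Its CYGB counts were 3009, 212 and 3552, all below the lowest MOCK library. CYGB replicate 2 stood far below the other two, and in that library the count of ENST00000636219 was the highest. Its fitted log2 fold change was -1.18 (standard error 0.90).

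ENST00000324856, the transcript with the longest coding region shown (6855 bases), was at 282, 1785 and 3057 in the MOCK replicates, against 331, 1520 and 397 in the CYGB replicates. The groups overlapped, and MOCK replicate 1 lay below every CYGB library. Its log2 fold change was -1.16 (standard error 0.99). It was -2.23 without CYGB replicate 2 and -0.41 without MOCK replicate 3.

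Together these 3 transcripts held 84.5 to 94.1% of the ARID1A counts of a library. Their sum was 5457, 7081 and 7697 in MOCK, as against 7491, 7904 and 8414 in CYGB. The sum thus overlapped between groups, as the gene total did. Without ENST00000636219, the ARID1A counts were 6460, 7723 and 8469 in MOCK and 4099, 2225 and 4479 in CYGB, and the groups did not overlap. How far the counts on ENST00000636219 rest on the division of shared reads was not tested, as the table holds no reads.

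**Figure D2:**
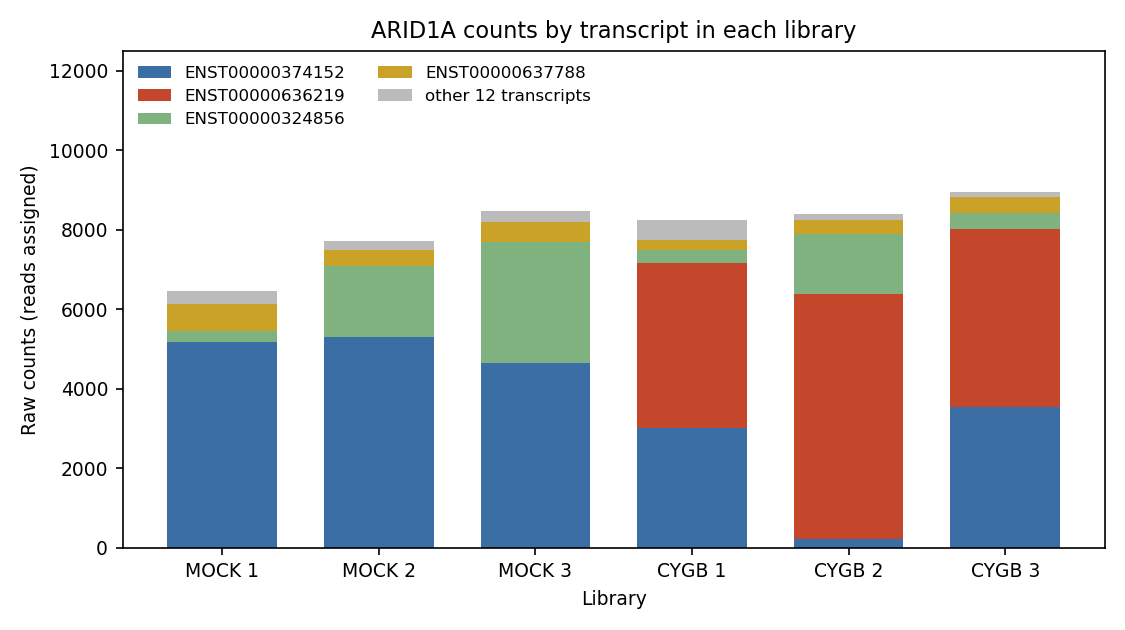
Raw counts of ARID1A in each of the 6 libraries, stacked by transcript. The bars reach 6460 to 8469 counts in MOCK and 8250 to 8944 counts in CYGB, and ENST00000636219 is present in the 3 CYGB bars and absent from the 3 MOCK bars.

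The retained intron transcript ENST00000637788 stood at 678, 401 and 485 in the MOCK replicates against 240, 329 and 409 with CYGB, and its groups overlapped by 1 library. A second retained intron transcript, ENST00000636110, had 45 to 97 counts per library in both groups. In the MOCK replicates the coding transcript ENST00000615191 was at 211, 49 and 1 counts, and in CYGB at 3, 1 and 1. Without MOCK replicate 3 it too passed the threshold of the study's methods, with a fitted log2 fold change of -6.22. ENST00000457599 had 154 counts in MOCK replicate 3, 367 in CYGB replicate 1 and 0 in the other 4 libraries.

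Of the remaining 9 ARID1A transcripts, ENST00000466382 was at 0 in every library. The other 8 (ENST00000532781, ENST00000430291, ENST00000636794, ENST00000636422, ENST00000636072, ENST00000637465, ENST00000524572 and ENST00000636958) had at most 48 counts in any library. The 3 of these that passed the expression filter, ENST00000532781, ENST00000430291 and ENST00000636794, overlapped between groups.

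Across the table, 5 of 66609 tested transcripts (0.00751%) had 0 counts in each MOCK library and at least 1000 in each CYGB library, and ENST00000636219 was 1 of these. The methods of the study set a threshold for genes, a p of 0.01 or less with a ratio that is either 2 or more or 0.5 or less. It was applied here to transcripts as well as genes, with the unadjusted p. By this threshold ENST00000636219 was the 1 member transcript called out of 95 tested. Of all transcripts tested, 1.02% were called, and 0.54% were called as higher in CYGB. After Benjamini-Hochberg adjustment by edgeR's quasi-likelihood test, 0 member transcripts were under 0.05, as were 0.015% of all transcripts. Before adjustment that test gave 3 of the 95, beside 3.78% of all. DESeq2 and edgeR's exact test each left 1 after adjustment, which was ENST00000636219, beside 1.12% and 0.779% of all transcripts. Since the values of this contrast chose the genes, nothing is read from these counts.

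The shift in ARID1A was also described over all of its transcripts, as the share of the gene's counts that would have to move to other transcripts for 2 libraries to have equal transcript shares. It averaged 23.2% between MOCK libraries, 27.6% between CYGB libraries and 61.2% between libraries of different groups. The smallest value between groups (50.1%) exceeded the largest within a group (38.9%). Among the 8135 genes with at least 500 counts in every library, the median between groups was 11.3%, and 99.2% of genes had a smaller value than ARID1A. In 0.836% of these genes every pair between groups exceeded every pair within groups, and of the 10 subunits this held for ARID1A alone. Since ARID1A was chosen with its values in this contrast known, its place among these genes is a description and nothing is read from it.

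**Figure D3:**
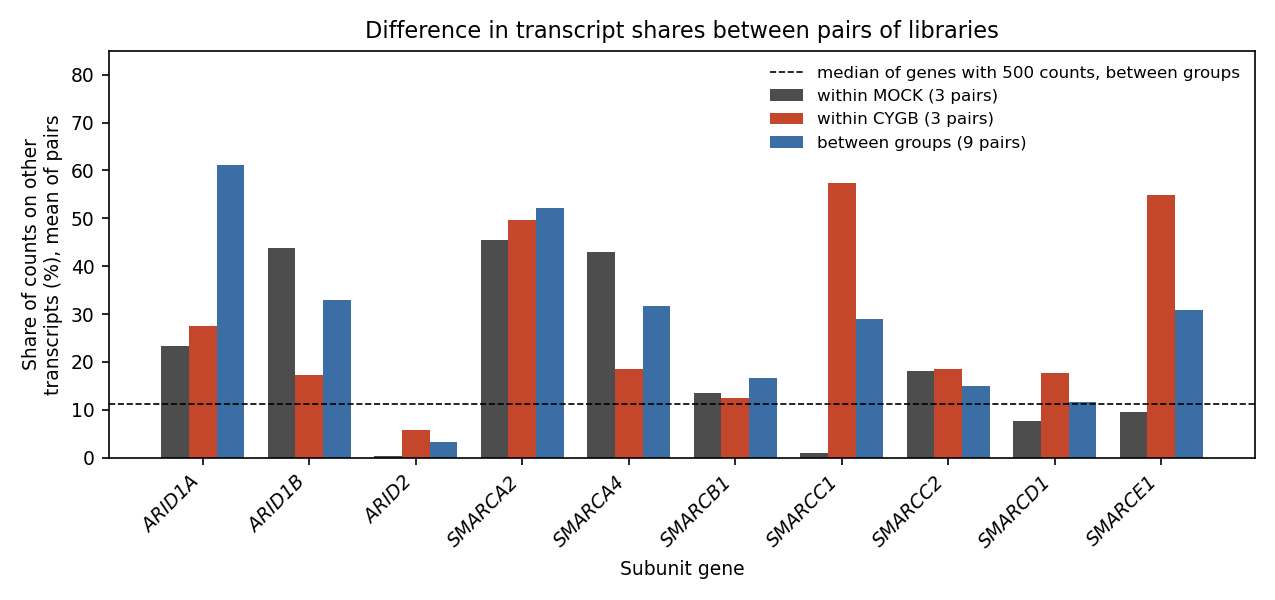
Mean share of a gene's counts on different transcripts for pairs of libraries within MOCK, within CYGB and between groups, for the 10 subunit genes. ARID1A reaches 61.2% between groups against 23.2 and 27.6% within them. In ARID1B, ARID2, SMARCA4, SMARCC1, SMARCC2, SMARCD1 and SMARCE1 at least 1 of the within-group bars is above the bar between groups. In SMARCA2 (49.7% within CYGB, 52.2% between groups) and SMARCB1 (13.4% within MOCK, 16.6% between groups) the higher within-group bar is slightly below it.

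ARID1B (ENSG00000049618, chromosome 6 from 156776020 to 157210779) is the paralogue that takes the place of ARID1A in BAF complexes. It was measured at 81.1, 78.6 and 50.9 CPM in MOCK and 80.5, 72.1 and 50.6 CPM in CYGB. Replicate 3 was the lowest in each group, and the log2 fold change was -0.05 (standard error 0.24). Per length of transcript, ARID1A exceeded ARID1B in all 6 libraries, by a ratio of 1.76 to 3.52. The most abundant ARID1B transcript by total count, ENST00000637810, had 1434, 0 and 990 counts in MOCK and 977, 522 and 628 in CYGB.

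ARID2 (ENSG00000189079, chromosome 12 from 45729665 to 45908040), the DNA-binding subunit of PBAF, was at 76.1, 80.1 and 81.7 CPM in MOCK and 87.4, 82.4 and 82.1 CPM in CYGB. All CYGB libraries were above all MOCK libraries, by a margin of less than 1 CPM. This was a log2 fold change of 0.08 (standard error 0.08). It varied less within groups than the other 9 genes, with an SD of 0.05 on the log2 scale that was smaller than in all but 5.24% of the genes of like level. Nearly all of its counts fell on ENST00000334344, with 3497, 4120 and 4092 counts in MOCK and 3958, 4045 and 4222 in CYGB.

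Among the motor subunits, SMARCA4 (ENSG00000127616, chromosome 19 from 10960825 to 11079426) was at 69.7, 64.8 and 47.7 CPM in MOCK and 52.6, 53.4 and 50.9 CPM in CYGB. The CYGB values lay within the range of MOCK, with a log2 fold change of -0.21 (standard error 0.16). Its most abundant transcript, ENST00000450717, had 586 to 1030 counts in MOCK and 560 to 812 in CYGB.

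The paralogous motor SMARCA2 (ENSG00000080503, chromosome 9 from 1980290 to 2193624), whose loss by silencing is common in cancer lines, was at 13.3, 48.0 and 21.2 CPM in MOCK and 45.7, 51.1 and 40.9 CPM in CYGB. MOCK replicate 2 lay within the CYGB range and the other 2 MOCK libraries below it. The log2 fold change was 0.74 (standard error 0.46), the largest of the 10 genes in size. Without MOCK replicate 2 it was 1.41 (standard error 0.25) and the gene passed the threshold, with 0 member genes at an adjusted p under 0.05. The library left out was the MOCK library within the CYGB range, so nothing is read from this call. The share of all genes called in that fit is not given here. In level per length, the ratio of SMARCA4 to SMARCA2 was 6.87, 1.77 and 2.94 in MOCK and 1.51, 1.37 and 1.63 in CYGB. The CYGB libraries were all below the MOCK libraries, at the closest 1.63 against 1.77. Each of the genes by itself overlapped between groups, and how many other gene pairs separate in this way was not counted.

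SMARCA2 counts also moved among its transcripts, within groups as much as between them (45.4% within MOCK, 49.7% within CYGB and 52.2% between groups). The coding parts of its 2 most abundant transcripts differ by a cassette exon of 54 bases at chr9:2170419-2170472, exon 29 of the 34 in ENST00000349721. The exon is shown in capitals between the ends of its neighbours because both transcripts carried counts in every library.
ENST00000349721: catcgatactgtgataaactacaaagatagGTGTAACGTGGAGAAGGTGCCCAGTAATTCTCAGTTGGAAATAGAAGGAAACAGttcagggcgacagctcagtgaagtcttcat
ENST00000357248: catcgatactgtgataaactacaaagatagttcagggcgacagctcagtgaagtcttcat
The transcript ENST00000349721, with the exon, had 253, 636 and 680 counts in MOCK and 293, 674 and 559 in CYGB. The form without it had 24, 692 and 96 counts in MOCK and 120, 693 and 545 in CYGB. Another transcript, ENST00000450198, had 14, 0 and 0 counts in MOCK and 1612, 0 and 476 in CYGB, so CYGB replicate 2 lacked it. No group was set apart by any of these 3.

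SMARCC1 (ENSG00000173473, chromosome 3 from 47585272 to 47782106, minus strand), which pairs with SMARCC2 in the scaffold of the core, varied most among the libraries. It was measured at 354, 73.0 and 360 CPM in MOCK and 369, 1.28 and 353 CPM in CYGB. Replicate 2 of each group stood apart and the other 4 libraries lay between 353 and 369 CPM. The log2 fold change of -0.12 had a standard error of 1.50, and without both of these libraries it was 0.03. The SD within groups was 3.27 on the log2 scale, larger than in 99.5% of genes of like level.

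The low values were those of the main transcript ENST00000254480, with 16669, 3788 and 18475 counts in MOCK and 18621, 9 and 18482 in CYGB. In the same libraries some assembled transcripts that carry neither gene nor position were high. Of these, 8 had at least 10000 counts in CYGB replicate 2 and at most 1000 in each library other than MOCK replicate 2, and 2 of the 8 had at least 1000 in MOCK replicate 2. The first of these 2 had 12187 counts in MOCK replicate 2, 12805 in CYGB replicate 2 and 0 elsewhere. The other had 3515 and 17979 counts in those libraries and 393 to 873 in the others. These cut-offs follow the libraries with low SMARCC1, and no count by the same cut-offs for other libraries is given beside them. Whether any of these transcripts hold SMARCC1 reads was not tested.

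SMARCC2 (ENSG00000139613, chromosome 12 from 56162983 to 56189567, minus strand), the partner scaffold, was at 82.3, 83.6 and 91.2 CPM in MOCK and 95.8, 93.8 and 132 CPM in CYGB. All CYGB libraries were above all MOCK libraries, with CYGB replicate 3 well above the others. The log2 fold change was 0.32 (standard error 0.15) and fell to 0.15 without CYGB replicate 3. It overlaps MYL6 on the opposite strand, which had 9160, 11358 and 7185 counts in MOCK and 7512, 7547 and 9806 in CYGB, and reads of the shared stretch cannot be told apart if counting did not use strand. Its most abundant transcript, ENST00000267064, had 2689, 2332 and 3251 counts in MOCK and 3009, 3469 and 4392 in CYGB.

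SMARCB1 (ENSG00000099956, chromosome 22 from 23786931 to 23838008) is the core subunit that contacts the nucleosome acidic patch and is lost in rhabdoid tumours. It was at 91.2, 79.5 and 82.0 CPM in MOCK and 75.4, 84.3 and 70.3 CPM in CYGB, with a log2 fold change of -0.13 (standard error 0.11) and overlapping groups. The coding parts of its 2 most abundant transcripts differ in the donor of exon 2, which ends 27 bases further downstream in ENST00000644036 (chr22:23791756-23791894) than in ENST00000407422 (chr22:23791756-23791867). They are shown because the counts of both did not overlap between groups, as held for 10.4% of all transcripts by CPM. The extra bases are in capitals.
ENST00000644036: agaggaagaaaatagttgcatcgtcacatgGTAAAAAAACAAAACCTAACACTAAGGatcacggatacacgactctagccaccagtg
ENST00000407422: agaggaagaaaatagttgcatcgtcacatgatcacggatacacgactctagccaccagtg
The longer transcript, ENST00000644036, had 1451, 943 and 709 counts in MOCK and 654, 641 and 414 in CYGB, a log2 fold change of -0.88 (standard error 0.38). The shorter transcript, ENST00000407422, had 2312, 2683 and 2610 counts in MOCK and 2808, 2686 and 2748 in CYGB, a log2 fold change of 0.11 (standard error 0.13). Its groups were at the closest 2683 against 2686 counts. As shares of the SMARCB1 counts, both transcripts overlapped between groups. The shorter held 53.7, 63.9 and 61.8% in MOCK and 73.7, 62.7 and 74.4% in CYGB. The longer held 33.7, 22.5 and 16.8% in MOCK and 17.2, 15.0 and 11.2% in CYGB. The transcripts differ in length as well, at 5210 and 1730 bases, and at the 3′ end, at 23838008 and 23834540. Of their 150-base windows, 68.5% in the longer and 0.949% in the shorter occur in no other SMARCB1 transcript. The counts therefore do not separate the donor from the 3′ end.

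SMARCD1 (ENSG00000066117, chromosome 12 from 50084972 to 50100712), a subunit that links the complex to transcription factors, was at 18.9, 17.4 and 23.8 CPM in MOCK and 37.2, 18.5 and 17.7 CPM in CYGB. CYGB replicate 1 alone was high. The log2 fold change was 0.29 (standard error 0.32), and without that library it was -0.15. In ENST00000394963, its main transcript, CYGB replicate 1 had 1733 counts and the other 5 libraries 636 to 844.

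SMARCE1 (ENSG00000073584, chromosome 17 from 40624962 to 40648864, minus strand), an HMG-box subunit, was at 124, 139 and 141 CPM in MOCK and 136, 135 and 111 CPM in CYGB. The log2 fold change was -0.08 (standard error 0.11) with overlapping groups. In CYGB replicate 3 its main transcript ENST00000348513 had 419 counts, against 4478 to 6236 in the other 5 libraries. ENST00000643318 had 2933 counts in that library and 0 in the other 5.

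Over the 10 genes, 5 were higher and 5 lower in CYGB, with a median log2 fold change of 0.02 beside -0.01 over all 19987 genes tested. Their median absolute log2 fold change was 0.15, beside 0.12 for genes that averaged 10 CPM or more. By edgeR's quasi-likelihood test, 0 passed the threshold, 0 an adjusted p of 0.05 and 0 an unadjusted p of 0.05, and DESeq2 and edgeR's exact test also gave 0 by each rule. Of all genes, 0.565% passed the threshold, 0.055% the adjusted and 4.54% the unadjusted p in the quasi-likelihood fit. The threshold was passed by 1.32% of genes with DESeq2 and 1.28% with the exact test, the adjusted p by 0.54% and 0.32%, and the unadjusted p by 6.14% and 3.92%. The groups did not overlap for 2 of the 10, ARID2 and SMARCC2, both higher in CYGB, beside 11.0% of all genes in either direction and 5.72% in this one. Among the 95 member transcripts tested, 13 did not overlap, beside 10.4% of all transcripts, 4 of them from SMARCB1 and 3 from SMARCA4. The latter included ENST00000590574, with 88, 24 and 125 counts in MOCK and 0, 6 and 0 in CYGB, which passed the threshold with DESeq2 and with edgeR's exact test, as did 2.26% and 1.66% of all transcripts.

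**Figure D4:**
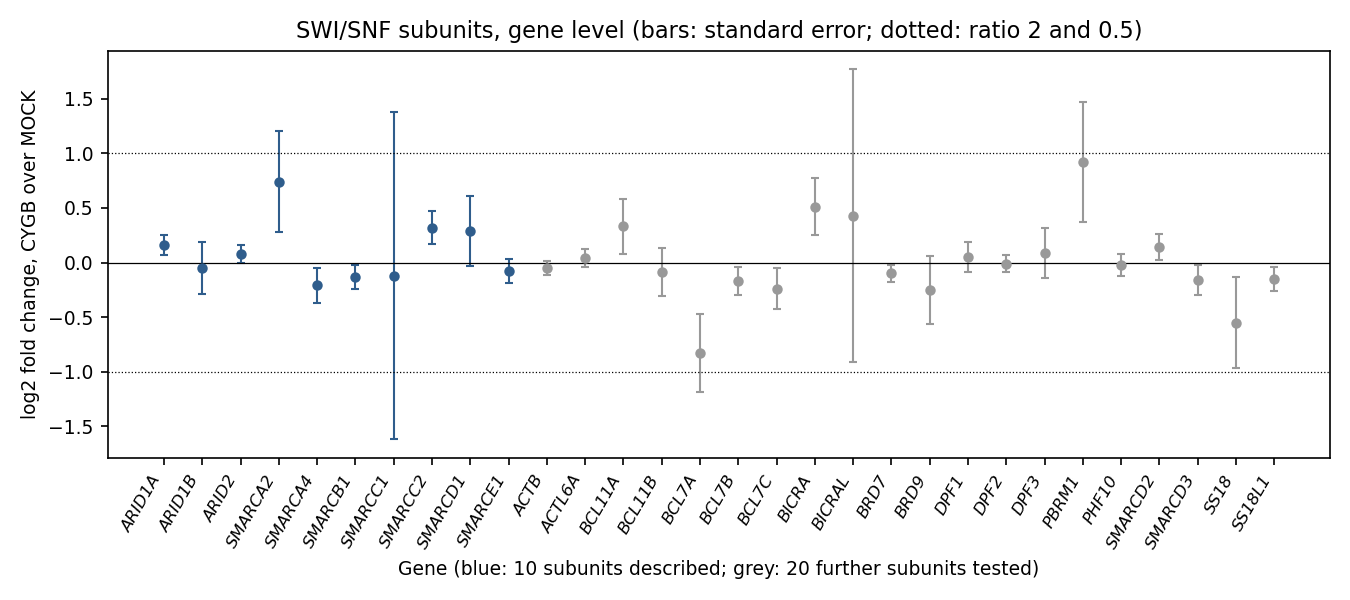
Log2 fold change of CYGB over MOCK at the gene level with its standard error, for the 10 genes described (blue) and 20 further SWI/SNF subunits (grey). Dotted lines mark expression ratios of 2 and 0.5; all 30 points lie between them, and SMARCC1 and BICRAL have the widest bars.

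Added up, the 10 genes came to 1047, 810 and 1064 CPM in MOCK and 1143, 757 and 1078 CPM in CYGB, with replicate 2 the lowest in each group. Without SMARCC1 the sum was 693, 737 and 704 CPM in MOCK and 774, 755 and 725 CPM in CYGB. The CYGB range then met the MOCK range at its upper end, with CYGB replicate 3 below MOCK replicate 2.

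Levels of different genes were compared as TPM, counts per length of transcript scaled to an equal total in each library. By mean TPM over the 6 libraries the order was SMARCC1, SMARCB1, SMARCC2, ARID1A, SMARCE1, SMARCA4, ARID1B, ARID2, SMARCD1 and SMARCA2. SMARCB1 was at 69.8 ± 4.58 TPM in MOCK and 64.7 ± 7.54 TPM in CYGB (SD, n = 3 each). ARID1A was at 46.0 ± 4.67 and 52.0 ± 0.79 TPM, and SMARCA2 at 10.1 ± 6.73 and 17.2 ± 2.32 TPM (SD, n = 3 each). SMARCC1 headed the order through 4 libraries of 113 to 122 TPM, as its other 2 were at 23.8 and 0.43 TPM.

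Neighbours in this order were set against the spread over libraries. SMARCE1 exceeded SMARCA4, and SMARCA4 exceeded ARID1B, in 6 of 6 libraries, with mean log2 differences of 0.81 and 0.44. The two-sided exact permutation test by sign flips gave p = 0.0312 for each, the smallest value it can give with 6 libraries, and 0.141 after Benjamini-Hochberg adjustment over the 9 neighbour pairs. The order was taken from these same libraries, so the p-values describe its spread and are no independent support for it. The other 7 pairs did not keep 1 order in all libraries. The order of SMARCA4 and ARID1B also depended on the length used. With the length of the most abundant transcript, ARID1B stood above SMARCA4 by mean TPM, and SMARCE1 stayed above both. No pair passed after adjustment, for which 6 libraries leave little room. SMARCC2, ARID1A and SMARCE1 in particular were at nearly one level, with mean log2 differences of 0.01 and 0.03 between neighbours.

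**Figure D5:**
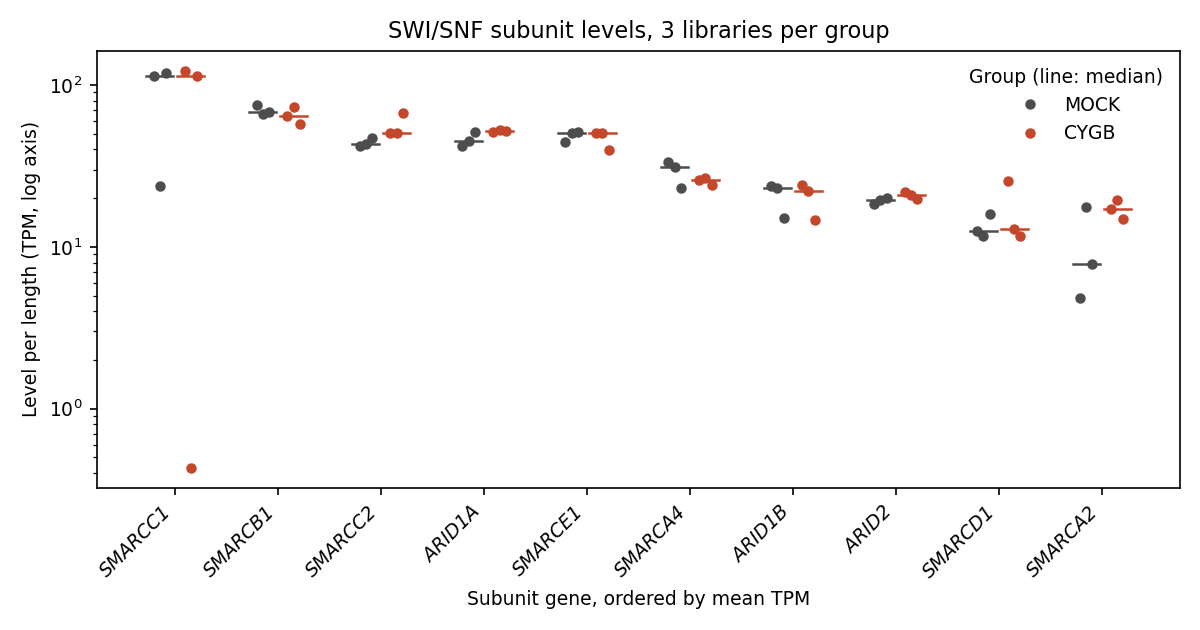
TPM of the 10 subunit genes in each library on a log axis, ordered by mean TPM, with MOCK in grey, CYGB in red and group medians as lines. Points of most genes lie close together, apart from SMARCC1, where 1 library of each group falls to 23.8 and 0.43 TPM, and SMARCA2 in MOCK.

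The genes closest to ARID1A in pattern were found from log2 CPM centred on each gene's mean, as the root mean square difference over the 6 libraries among the 9946 genes that averaged 10 CPM or more. They were TBC1D14, at a difference of 0.017, VPS37C at 0.024 and TRPC4AP at 0.029. The nearest of the other 9 subunits was ARID2, at a difference of 0.08 and rank 399. SMARCC1 was the farthest of the 9, at a difference of 2.83.

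The other subunits of SWI/SNF complexes were read from a list of 21 genes, of which 20 passed the expression filter. With edgeR's quasi-likelihood test 0 passed the threshold of the methods and 0 an adjusted p of 0.05, and DESeq2 and the exact test also gave 0. At an unadjusted p under 0.05 there were 0 with that test, 0 with edgeR's exact test and 1 with DESeq2, beside 4.54%, 3.92% and 6.14% of all genes. Of the 20, 8 were higher and 12 lower in CYGB, with a median log2 fold change of -0.04. PBRM1, the bromodomain subunit of PBAF, was at 81.5, 18.8 and 25.9 CPM in MOCK and 79.6, 86.4 and 72.7 CPM in CYGB. MOCK replicate 1 lay among the CYGB libraries and the other 2 MOCK libraries below them, with a log2 fold change of 0.92 (adjusted p = 0.963). Without MOCK replicate 1 PBRM1 passed the threshold, with a log2 fold change of 1.83 and an adjusted p of 0.225 by edgeR's quasi-likelihood test.

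BCL7A, an accessory subunit, was at 33.0, 19.9 and 33.8 CPM in MOCK and 9.62, 23.0 and 16.1 CPM in CYGB, with a log2 fold change of -0.83 (adjusted p = 0.963). Without replicate 2 of both groups it passed the threshold, at -1.37, with an adjusted p of 0.978 by edgeR's quasi-likelihood test. SS18, best known from the SS18-SSX fusion of synovial sarcoma, differed by a log2 fold change of -0.55 (adjusted p = 0.963). BICRAL, a GBAF subunit named here after its values were seen, was at 0.127 CPM in MOCK replicate 1 and at 30.5 to 36.0 CPM in the other 5 libraries.

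Of 32 genes of the ISWI, CHD and INO80 families of remodellers, all tested, 0 passed the threshold and 0 an adjusted p of 0.05 with any of the 3 tools (edgeR's quasi-likelihood test, DESeq2 and edgeR's exact test). Each of these tools gave 1 at an unadjusted p under 0.05, a share near that of all genes (4.54%, 6.14% and 3.92%), and 18 of the 32 were higher in CYGB with a median log2 fold change of 0.01. CHD2, a remodeller with a chromodomain, was at 29.3, 43.6 and 35.3 CPM in MOCK and 58.7, 118 and 44.2 CPM in CYGB. Its log2 fold change was 1.03 (adjusted p = 0.963). The groups did not overlap, at the closest 43.6 against 44.2 CPM. This held for 1 of the 32 genes, beside 11.0% of all genes in either direction. The histone chaperone RBBP4 was at a log2 fold change of 0.90 (standard error 0.55) and GATAD2A, a NuRD subunit, one of -0.84 (standard error 0.88), with overlapping groups.

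Polycomb complexes, which silence genes and are opposed by SWI/SNF, were read from 21 genes, all tested. None passed the threshold or an adjusted p under 0.05 with any of the 3 tools. At an unadjusted p under 0.05 there was 1 with edgeR's quasi-likelihood test, 1 with DESeq2 and 0 with edgeR's exact test, where 4.54%, 6.14% and 3.92% of all genes were. Their median log2 fold change was -0.04, with 8 higher and 13 lower. JARID2, an accessory subunit of PRC2, was at 17.2, 15.5 and 15.2 CPM in MOCK and 87.2, 26.5 and 9.94 CPM in CYGB, so CYGB libraries lay on both sides of MOCK. CBX7, a PRC1 subunit that reads the H3K27 methyl mark, was at 41.5, 30.8 and 45.8 CPM in MOCK and 4.59, 33.9 and 7.71 CPM in CYGB. Its log2 fold change was -1.35 (adjusted p = 0.963). Without CYGB replicate 2, which lay within the MOCK range, it was -2.68 and CBX7 passed the threshold. The adjusted p by edgeR's quasi-likelihood test was then 0.267. AEBP2, another PRC2 accessory subunit, was at -0.55 (adjusted p = 0.963). PHF1 was named after its values were seen, as the 1 gene under 0.05 before adjustment in the quasi-likelihood fit, with a log2 fold change of -0.23 (adjusted p = 0.963).

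Among 8 genes that have been described as controlled by ARID1A (SLC7A11, PIK3IP1, CDKN1A, SMAD3, HDAC6, AURKA, CDC25C and MYC), 0 passed the threshold, the adjusted p or an unadjusted p of 0.05 with any of the 3 tools. Of all genes, 0.565% passed the threshold with edgeR's quasi-likelihood test, 1.32% with DESeq2 and 1.28% with edgeR's exact test. An unadjusted p under 0.05 was reached by 4.54%, 6.14% and 3.92% of all genes. With shares this low, nothing is read from 0 of 8. The 8 genes had a median log2 fold change of 0.06, with 6 higher and 2 lower. CDKN1A, the cell cycle inhibitor p21, was at 252, 566 and 231 CPM in MOCK and 508, 580 and 656 CPM in CYGB. MOCK replicate 2 lay within the CYGB range, and the log2 fold change was 0.73 (adjusted p = 0.963). Without that library CDKN1A passed the threshold with a log2 fold change of 1.27, at an adjusted p of 0.179 by edgeR's quasi-likelihood test. CDC25C, a phosphatase that drives entry into mitosis, had a log2 fold change of 0.31 and the mitotic kinase AURKA one of -0.12. SLC7A11, the cystine transporter that supplies glutathione synthesis, was at 82.6 ± 2.39 CPM in MOCK and 85.7 ± 19.8 CPM in CYGB (SD, n = 3 each).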

How the data were processed

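The submitters' processing notes name HISAT2, HISAT, DESeq2 and hg19, and the counting tool is not given in the sources used here. The authors deposited raw counts per transcript of 150-base paired reads, without normalization. Of 172678 transcripts, 151453 carry a gene. The 21225 without one (18.6 to 19.5% of counts per library) stayed out of library sizes and tests. GENCODE 29 lists 151393 of the former, 99.6% at an identical position, so GRCh38 coordinates are given and sequences come from the GENCODE 29 transcripts. A sequence of ARID1A is not reported here.

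The 10 genes, the gene lists and the tests were chosen with earlier results of these data known. Counts were summed per gene, kept by filterByExpr (minimum count 10), normalized by TMM and fitted with edgeR 4.0.16 (glmQLFit, glmQLFTest) in R 4.3.3 over 19987 genes and 66609 transcripts, with Benjamini-Hochberg adjustment. The common biological variation (coefficient) was 36.6% for genes and 78.9% for transcripts. DESeq2 1.42.0, edgeR's exact test, DESeq2's size factors, other filters, a replicate block and leaving out libraries were alternatives. The fit was tested on simulated data. CPM of markers used library totals, and TPM used the count-weighted mean length of a gene's transcripts. Figures were drawn with matplotlib 3.10.9. Named were all 10 genes, every ARID1A transcript, of the other genes the most abundant transcript and each one called by the quasi-likelihood test on all 6 libraries (there was none), and in each further list the called genes and the 3 largest changes. Further transcripts and genes were named after their values were seen, among them the transcripts of SMARCB1 and SMARCA2 whose sequences are shown. Deviations of same-numbered libraries from their group means correlated at 0.0480, 0.0221 and 0.0393 across genes, so the replicate numbers were not taken as pairs. Libraries of 1 group differed by a chi-square of at least 114 per gene and each was counted as 1 replicate. The submitters call the replicates biological, but no source used here says that they came from separate cultures, so p-values measure the spread between these libraries, which may be technical.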

Additional observations from a re-analysis of the deposited data

How the results depend on the processing

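The 10 genes gave 0 calls at the threshold of the methods in every setting but 2. Leaving out 1 library gave 0 to 1, the 1 being SMARCA2 without MOCK replicate 2, and leaving out replicate 2 of both groups, an alternative chosen after seeing the data, gave 1, again SMARCA2 (log2 fold change 1.34). ENST00000636219 passed the threshold in every setting, with a fitted log2 fold change of 14.71 (DESeq2) to 15.38. Called member transcripts numbered 1 with edgeR's quasi-likelihood test, 2 with DESeq2, 2 with edgeR's exact test, 1 to 4 with 1 library left out and 3 without replicate 2 of both groups. Member transcripts tested numbered 95 with these 3 tools on all libraries, 113 to 121 with 1 library left out and 103 without replicate 2 of both groups. Called ARID1A transcripts numbered 1 to 2 with 1 library left out. With 1 library left out, calls numbered 0 to 1 for the other SWI/SNF subunits, 0 to 1 for Polycomb genes and 0 to 1 for genes described as controlled by ARID1A. Without replicate 2 of both groups each of these lists gave 1 (BCL7A, CBX7 and CDKN1A), whereas the other remodellers gave 0 in every setting. The cause of these changes was not tested, beyond the fewer samples in such fits. The shares of all genes and transcripts called with libraries left out are not given here, so nothing is read from the calls of those fits.

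The sign of the log2 fold change turned under at least 1 of the 13 alternatives for ARID1B (3 of them, -0.24 to 0.12), SMARCC1 (4, -1.37 to 0.46), SMARCD1 (1, -0.15) and SMARCE1 (1, 0.01), and under none for the other 6 genes. The order by TPM kept all 9 neighbour pairs with the main length. It kept 5 with the length of the most abundant transcript, 7 with the longest annotated length, and 7 to 9 with 1 library left out. SMARCA4 above ARID1B was among the pairs lost with the length of the most abundant transcript. With the replicate number as a block, 0 member genes and 1 member transcript were called, and the block changed no call of the members. With 3 libraries per group, a common coefficient of variation of 78.9% limits what the transcript fit can call.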
